A study of Homo sapiens with 20 samples.

Results

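The 47 genes described here are the mitotic and G2/M genes of MDA-MB-468 cells: transcription factors of the G2/M program, cyclins and kinases of mitotic entry, and genes of the spindle checkpoint, centromere, spindle and cytokinesis. They were chosen by name for their known function, from the 60271 genes of the deposited table, with earlier results of these data known, though the rule itself uses no measured value. MDA-MB-468 is an established human line of a basal-like breast cancer that carries many copies of the EGF receptor gene. All cultures were seeded and harvested together and were kept in serum-free medium before treatment. The control was left untreated, and the other groups received EGF at 50 ng/mL, to induce EMT, over a period of 12, 24, 48 or 72 h, with 4 biological replicates in each of the 5 groups and 20 libraries in all. With a common harvest, hours of EGF and time in culture before EGF changed together between the EGF groups and cannot be told apart. Libraries were made with a kit for mRNA, so that each value is a transcript level over a whole culture of a single cell line.

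Cells copy their DNA in S phase and prepare for division in G2. Cyclin B and its kinase CDK1 then drive entry into mitosis, the kinetochores attach the chromosomes to the spindle, and the spindle checkpoint holds back anaphase until every chromosome is attached. CDC20 and UBE2C then activate and feed the anaphase-promoting complex, which marks cyclin B for destruction. These genes are transcribed mostly in G2 and M. In resting cells the DREAM complex keeps them off, and in cycling cells B-MYB (encoded by MYBL2) and FOXM1 turn them on, through promoter elements known as the cell cycle genes homology region (CHR) and the CCAAT box bound by NF-Y.

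The promoters of 6 members are shown because they hold both of these elements. Windows from RefSeq (build GRCh38.p14), reaching from 250 bases before to 50 bases after the start site, were found for 39 of the 47 members. No window was matched for AURKA, BIRC5, BUB3, FOXM1, RACGAP1, TPX2, TTK or UBE2C. The first element searched was CCAAT, on both strands, a match on the other strand being printed as ATTGG here. The second was the CHR core, in its common form TTTGAA, which on the other strand is printed as TTCAAA in the windows below, and in its rarer form TTCGAA, which reads the same on both strands. Among members whose values are given for every library, those with both elements and the largest summed change against the control were taken, and the 250 bases before the start are printed 5′ to 3′ with every match in capitals. The windows are HMMR (chr5:163460382-163460631, plus strand), CCNB2 (chr15:59104896-59105145, plus strand), KIF11 (chr10:92592880-92593129, plus strand), TOP2A (chr17:40417897-40418146, minus strand), CDC20 (chr1:43358731-43358980, plus strand) and CDK1 (chr10:60778081-60778330, plus strand).
HMMR: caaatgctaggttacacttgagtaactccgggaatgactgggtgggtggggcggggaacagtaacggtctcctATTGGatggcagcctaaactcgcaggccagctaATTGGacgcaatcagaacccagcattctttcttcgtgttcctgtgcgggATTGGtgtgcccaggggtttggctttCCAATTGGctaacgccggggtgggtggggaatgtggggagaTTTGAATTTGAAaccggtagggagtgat
CCNB2: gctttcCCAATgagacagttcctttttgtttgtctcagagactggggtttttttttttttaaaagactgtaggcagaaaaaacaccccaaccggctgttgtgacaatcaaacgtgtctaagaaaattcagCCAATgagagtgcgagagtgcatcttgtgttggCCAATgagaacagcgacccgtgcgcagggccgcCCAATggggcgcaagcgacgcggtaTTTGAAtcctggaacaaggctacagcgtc
KIF11: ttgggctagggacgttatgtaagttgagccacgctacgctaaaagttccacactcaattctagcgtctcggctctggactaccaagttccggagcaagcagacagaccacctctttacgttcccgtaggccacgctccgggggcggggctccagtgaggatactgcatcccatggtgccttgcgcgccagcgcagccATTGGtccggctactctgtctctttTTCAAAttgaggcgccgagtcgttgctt
TOP2A: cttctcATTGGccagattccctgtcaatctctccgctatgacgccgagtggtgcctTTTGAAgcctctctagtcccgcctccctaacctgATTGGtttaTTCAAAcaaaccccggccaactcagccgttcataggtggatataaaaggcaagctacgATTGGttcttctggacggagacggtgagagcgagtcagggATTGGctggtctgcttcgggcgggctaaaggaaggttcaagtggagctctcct
CDC20: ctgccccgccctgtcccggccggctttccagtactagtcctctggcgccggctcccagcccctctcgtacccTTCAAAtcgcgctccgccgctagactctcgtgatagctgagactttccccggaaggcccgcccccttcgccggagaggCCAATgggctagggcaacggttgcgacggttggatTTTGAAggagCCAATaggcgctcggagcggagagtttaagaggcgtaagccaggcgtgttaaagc
CDK1: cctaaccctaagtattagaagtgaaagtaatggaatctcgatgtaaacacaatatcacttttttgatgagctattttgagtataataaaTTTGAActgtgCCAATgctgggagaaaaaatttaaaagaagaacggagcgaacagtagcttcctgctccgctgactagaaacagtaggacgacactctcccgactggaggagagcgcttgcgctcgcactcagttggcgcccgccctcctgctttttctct

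A CHR core began 28 and 22 bases before the start in HMMR, 29 bases before it in CCNB2 and 28 bases before it in KIF11. In CCNB2, CCAAT boxes began 244, 120, 87 and 54 bases before the start. In HMMR the CCAAT match nearest the start and its mirror on the other strand overlap each other. In TOP2A and CDK1 the CHR cores lay further away, at 194 and 151 bases in TOP2A and at 161 bases in CDK1. CCAAT was present in 31 of the 39 member windows, 79.5%, compared with 35.7% of 27305 genes with a window of the same length. The CHR core was present in 30 of 39, 76.9%, compared with 16.6%. Both were present in 26 of 39, 66.7%, compared with 6.58%, and at least 2 CCAAT matches with a CHR core in 43.6% compared with 1.98%. These are matches to letters and show neither binding nor a cause of any level below.

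The libraries held 15611961 to 25856953 counts, and member counts ran from 47 to 9257 per library. Levels are given as CPM, a gene's counts scaled to a common library size after TMM normalization, which adjusts for differences in library composition. In each case the 4 values follow replicates 1 to 4. All 47 members passed edgeR's filter on low counts, as did 16522 genes in all. Mitochondrial genes took 9.03% to 12.6% of the counts in the control and 7.69% to 11.3% at 12 h. They took 11.1% to 13.8% at 24 h, 9.83% to 16.9% at 48 h and 12.3% to 16.4% at 72 h. The part of these differences in the results was not tested. Marker levels in this paragraph are CPM by library size alone, without TMM. The TMM factors were 1.06 to 1.08 in the control and 0.862 to 0.898 at 12 h. The epithelial markers EPCAM, CDH1, KRT7, KRT8, KRT18 and KRT19 and the receptor EGFR were present in every library. Of the immune, endothelial and fibroblast markers, LUM was at 0 in 19 of the 20 libraries and CD3E in 15, while COL1A1 reached 15.2 CPM, CD68 29.3 CPM and PECAM1 5.55 CPM. The summed levels of these lists differed between the groups. The 6 epithelial markers summed to 1646 to 2127 CPM in the control and 6325 to 6812 CPM at 12 h. The immune markers went from 0.924 to 1.85 CPM in the control to 23.9 to 29.6 CPM at 72 h, and the fibroblast markers from 5.37 to 8.49 CPM to 13.2 to 15.6 CPM. The endothelial markers were at 1.90 to 3.53 CPM in the control and 0.426 to 0.653 CPM at 12 h. The part of these shifts in the results was not tested. These are bulk libraries, so fewer cells in G2 and mitosis and less of each transcript per such cell cannot be told apart.

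The mitotic genes fell at 12 h of EGF-treatment, lay closer to the control at 24 and 48 h, and were lowest at 72 h. Called means an adjusted p under 0.05 from edgeR's quasi-likelihood test, adjusted over all 16522 genes tested. At 12 h, 39 of the 47 members were lower than the control and 2 were higher, a number that was 0 with library size or upper-quartile scaling, while 36.5% of all tested genes were called lower and 32.9% higher. At 24 h, 34 were lower and 1 higher, with 29.6% of all tested genes lower and 29.2% higher. At 48 h, 23 were lower and 0 higher, with 21.8% of all tested genes lower and 24.0% higher. At 72 h, 46 were lower and 0 higher, with 31.0% of all tested genes lower and 30.6% higher. For both counts of 0, edgeR also gave 0 members higher at an unadjusted p under 0.05, and DESeq2 called 0. The median log2 fold change of the members at 12 h was -0.57, with -0.38 at 24 h, -0.26 at 48 h, and -1.17 at 72 h, beside medians of -0.054, -0.0071, 0.0099 and -0.0090 over all tested genes. The 4 time points were compared with the same 4 control libraries, so these comparisons are not independent of each other.

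**Figure D1:**
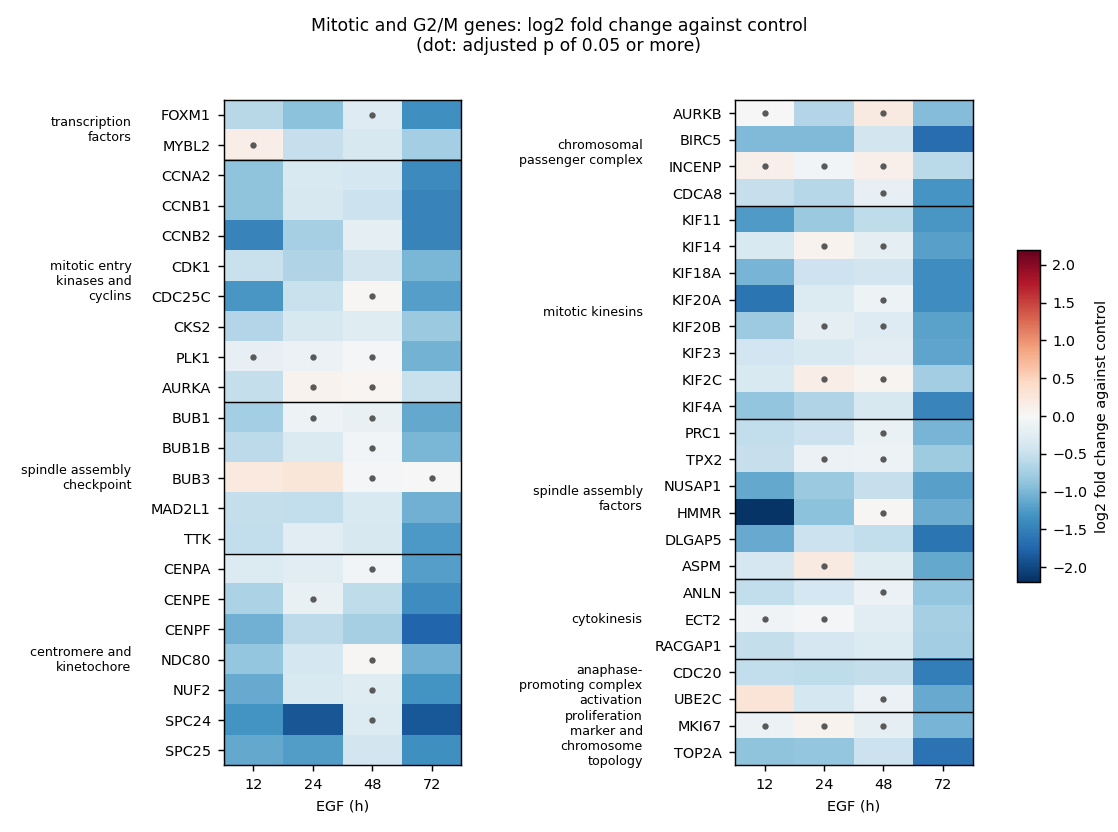
Log2 fold change against the control for each of the 47 members (rows, grouped by role) by hours of EGF-treatment (columns), blue for lower and red for higher, with a dot where the edgeR adjusted p was 0.05 or more. The 72 h column is blue for 46 members, BUB3 being the exception, and the 48 h column is the palest, with 24 dots.

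The size of the fall differed between the times. At 72 h, 45 members were lower by at least 1.5-fold, compared with 23 at 12 h, 13 at 24 h and 1 at 48 h, the last being CENPF. The same count was not made over all tested genes, whose spread also differed between the times. Their 25th percentile was -0.70, -0.43, -0.25 and -0.42 on the log2 scale at 12, 24, 48 and 72 h. Only the 12 h value lay beyond a 1.5-fold fall. Their 5th percentile at 48 h was -0.73, which was also the value of CENPF. At 12 h, all 4 EGF libraries lay below all 4 control libraries for 39 members, beside 31.4% of all tested genes. The same held for 30 members at 24 h (24.0% of all tested genes), 14 at 48 h (15.3%) and 46 at 72 h (25.9%). Summed over the 47 members, the level was 5085 ± 305 CPM (SD, n = 4) in the control, 3483 ± 96.6 at 12 h and 4038 ± 148 at 24 h, then 4241 ± 119 at 48 h and 2468 ± 131 at 72 h. The mean level was lowest at 72 h for 40 members, at 12 h for 5, and at 24 h and 48 h for 1 each. It was highest in the control for 34 members. Neither the lowest nor the highest group was counted over all tested genes.

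**Figure D2:**
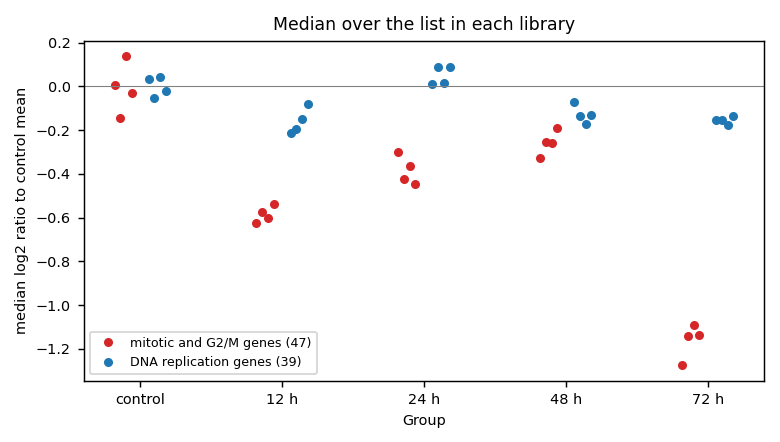
Median log2 ratio to the control mean over the 47 mitotic and G2/M genes (red) and over 39 DNA replication genes (blue) in each of the 20 libraries, by group. The red points lie between -0.14 and 0.14 in the control, between -0.62 and -0.54 at 12 h and between -1.27 and -1.09 at 72 h.

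The transcription factors FOXM1 and MYBL2 followed different courses. FOXM1, which activates G2/M promoters, was at 92.5, 117, 82.3 and 98.6 CPM in the control, at 64.2, 66.3, 59.2 and 67.3 CPM at 12 h and at 60.0, 48.1, 52.9 and 48.1 CPM at 24 h. At 48 h it was at 84.6, 96.0, 64.9 and 77.3 CPM, which overlaps the control, and at 72 h at 36.8, 31.2, 42.2 and 42.8 CPM, below every other group. It was lower at 12 h (log2 fold change -0.60, SE 0.12, edgeR adjusted p 7.2e-05), at 24 h (log2 fold change -0.90, SE 0.12, edgeR adjusted p 5.9e-07) and at 72 h (log2 fold change -1.35, SE 0.12, edgeR adjusted p 8.7e-10), and not called at 48 h (-0.28, adjusted p 0.054). Leaving out control replicate 3 (-0.35) or EGF 48 h replicate 2 (-0.37) turned the 48 h value into a call. Of its exon bases, 15.9% overlap the gene ITFG2 on the opposite strand. MYBL2, the B-MYB factor that acts with the MuvB core, was at 76.0, 82.8, 61.5 and 68.9 CPM in the control and at 81.4, 79.7, 80.3 and 77.0 CPM at 12 h, when the groups overlapped and no difference was called (0.14, adjusted p 0.17), except without control replicate 2 (0.21, called higher). It then stood at 49.9, 50.3, 51.9 and 51.4 CPM at 24 h, 60.1, 65.5, 49.9 and 50.7 CPM at 48 h and 43.7, 37.7, 45.5 and 44.7 CPM at 72 h. All 4 libraries at 24 h and at 72 h lay below the control (log2 fold change -0.51, SE 0.09, edgeR adjusted p 3.7e-05 at 24 h, and log2 fold change -0.75, SE 0.09, edgeR adjusted p 1.3e-07 at 72 h). MYBL2 was also called lower at 48 h (log2 fold change -0.36, SE 0.09, edgeR adjusted p 0.0022), with 3 of 4 libraries below the control.

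Of the 8 cyclins and kinases of mitotic entry, 7 were lower at 12 h and 6 at 24 h, then 5 at 48 h and 8 at 72 h. The shares of all tested genes called lower at these times were 36.5%, 29.6%, 21.8% and 31.0%. CCNB1, the main cyclin of mitotic entry, was at 241, 203, 274 and 226 CPM in the control and at 125, 124, 131 and 132 CPM at 12 h. It was at 194, 176, 183 and 183 CPM at 24 h, 164, 173, 167 and 176 CPM at 48 h and 77.9, 85.0, 89.9 and 89.7 CPM at 72 h. No EGF library reached the lowest control library, and the levels at 24 and 48 h lay between those at 12 h and the control. CCNB1 was lower at 12 h (log2 fold change -0.88, SE 0.07, edgeR adjusted p 1.7e-10) and at 72 h (log2 fold change -1.46, SE 0.07, edgeR adjusted p 2.8e-14). CCNB2, its partner paralog, was at 139, 120.1, 135 and 118 CPM in the control and at 44.3, 47.3, 45.1 and 48.3 CPM at 12 h. It rose to 83.9, 74.3, 77.4 and 73.1 CPM at 24 h and 112, 111, 107 and 110.0 CPM at 48 h, and stood at 42.2, 46.2, 45.5 and 51.7 CPM at 72 h. The 12 h and 72 h libraries overlapped and lay far below the control (log2 fold change -1.47, SE 0.07, edgeR adjusted p 1.2e-14 at 12 h, and log2 fold change -1.47, SE 0.07, edgeR adjusted p 1.4e-14 at 72 h). Its promoter, printed above, holds 4 CCAAT boxes and 1 CHR core.

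CDK1, the kinase that cyclin B activates, was lower at every time, but its call at 12 h (-0.49) was lost with scaling factors per gene (-0.19, edgeR adjusted p 0.19). It was at 88.2, 71.9, 102 and 88.7 CPM in the control, with 60.8, 58.9, 65.1 and 65.0 CPM at 12 h and 55.1, 56.0, 51.7 and 59.1 CPM at 24 h. At 48 h it was at 63.7, 54.4, 68.6 and 78.8 CPM, with 1 of 4 libraries within the control range, and at 72 h at 39.4, 45.6, 45.2 and 43.9 CPM, below every other library (log2 fold change -1.01, SE 0.10, edgeR adjusted p 5.1e-09). PLK1, a kinase that promotes mitotic entry and spindle formation, was at 45.1, 55.6, 38.9 and 43.6 CPM in the control, with 41.5, 38.6, 41.4 and 40.1 CPM at 12 h and 42.2, 40.6, 43.8 and 40.1 CPM at 24 h. These groups overlapped, as did the 48 h libraries at 50.5, 51.3, 37.0 and 39.6 CPM, and only the 72 h libraries at 20.8, 20.8, 24.96 and 23.2 CPM stood apart (log2 fold change -1.03, SE 0.11, edgeR adjusted p 1.3e-08). PLK1 was called lower at 12 h without control replicate 3 (-0.25). The same held when libraries were scaled by size only (log2 fold change -0.47), where the median of all genes shifts as for BUB3 below. Exons of other genes on the opposite strand cover 12.5% of the PLK1 exon bases. AURKA, the kinase of the spindle poles, was at 102, 97.0, 99.3 and 97.0 CPM in the control and at 65.7, 70.1, 69.7 and 68.2 CPM at 12 h. It was back at 109.6, 97.4, 106 and 102 CPM at 24 h and 101, 102, 99.6 and 101 CPM at 48 h, overlapping the control, and fell to 65.8, 70.4, 71.7 and 74.1 CPM at 72 h. AURKA was lower at 12 h (log2 fold change -0.53, SE 0.06, edgeR adjusted p 1.1e-08) and at 72 h (log2 fold change -0.49, SE 0.06, edgeR adjusted p 6.5e-08). Of the other members of this group, CDC25C, the phosphatase that activates CDK1, had log2 fold changes of -1.28 at 12 h, 0.023 at 48 h (not called) and -1.21 at 72 h. CCNA2, the cyclin of S and G2 phase, had -0.88 and -1.40 at 12 and 72 h, and CKS2, a small CDK-binding subunit, -0.65 and -0.82.

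**Figure D3:**
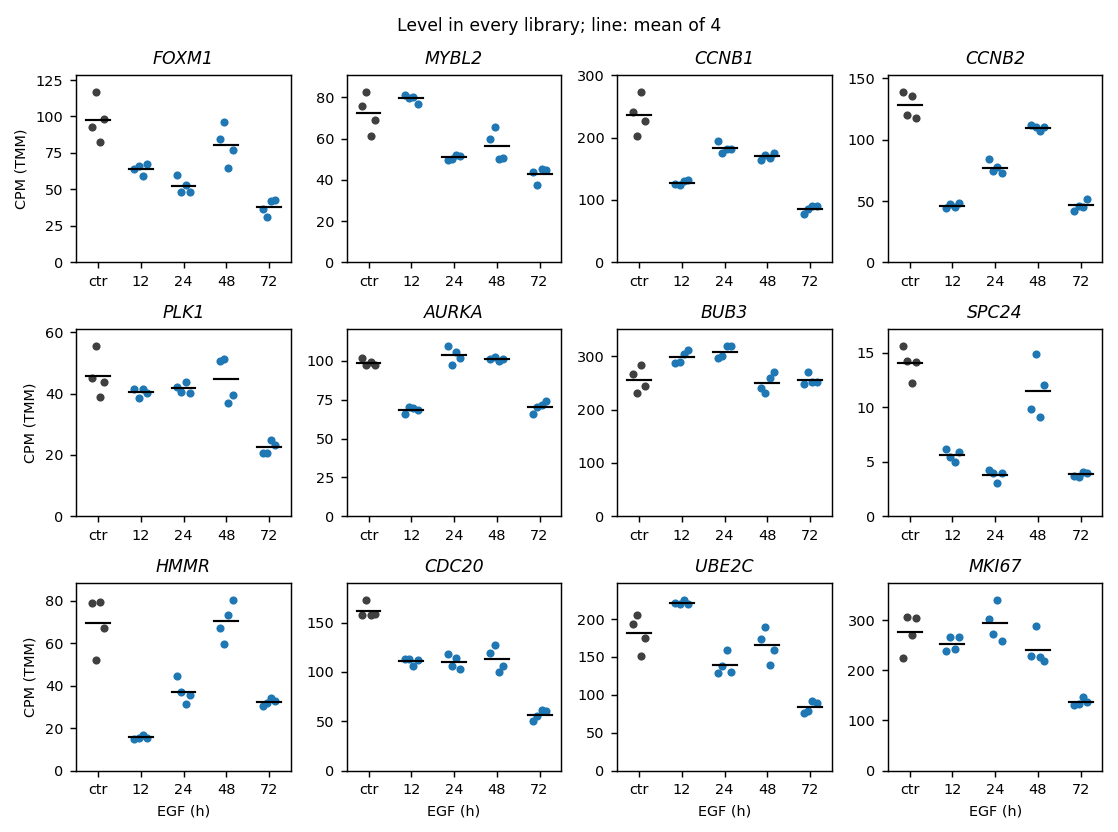
Level in CPM after TMM scaling (vertical axes, from 0) of 12 members in each library of the control (ctr, grey) and of each EGF time (blue), with a line at the mean of 4 libraries. FOXM1 and SPC24 have lower means at 24 than at 12 h, CCNB2 and HMMR rise in steps from 12 to 48 h, and BUB3 at 72 h overlaps the control.

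In the spindle assembly checkpoint, 4 of 5 members were lower at 12 h and 3 at 24 h, then 2 at 48 h and 4 at 72 h. Beside them, 36.5%, 29.6%, 21.8% and 31.0% of all tested genes were called lower at these times. BUB3, which docks the checkpoint kinases at kinetochores, was the one member not called lower at 72 h, and with UBE2C one of a pair called higher at an earlier time. It was at 266, 231, 283 and 244 CPM in the control, with 288, 288, 303 and 311 CPM at 12 h and 296, 299.5, 319 and 319 CPM at 24 h, with all 8 of these EGF libraries above the control. It was called higher at 12 h (log2 fold change 0.22, SE 0.07, edgeR adjusted p 0.0052), but was not called when scaled by upper quartiles (0.056) or by library size (-0.067), the latter shifting the median of all genes by -0.28. It was called higher at 24 h (log2 fold change 0.27, SE 0.07, edgeR adjusted p 0.0011), but was at 0.13 and not called with that scaling, which there shifts the median by -0.14. At 48 h BUB3 was at 239.9, 231, 259 and 269.7 CPM and at 72 h at 248, 270.2, 251 and 252 CPM, both overlapping the control, with a difference at 72 h of -0.003 on the log2 scale (SE 0.07). MAD2L1, which forms the inhibitor of anaphase, was at 35.2, 29.3, 43.4 and 33.1 CPM in the control, with 23.2, 22.5, 27.2 and 25.2 CPM at 12 h and 25.8, 24.7, 21.4 and 24.4 CPM at 24 h. It was at 25.4, 22.7, 31.4 and 32.2 CPM at 48 h, with 2 libraries inside the control range, and at 15.5, 17.7, 18.4 and 16.5 CPM at 72 h. The 72 h libraries lay below all others (log2 fold change -1.05, SE 0.12, edgeR adjusted p 3.9e-08). Its call at 48 h (log2 fold change -0.33, adjusted p 0.019) was lost without control replicate 3, EGF 48 h replicate 1 or EGF 48 h replicate 2. The checkpoint kinases BUB1, BUB1B and TTK had log2 fold changes of -0.75, -0.57 and -0.54 at 12 h and of -1.12, -1.003 and -1.26 at 72 h, all called lower.

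All 7 centromere and kinetochore members were lower at 12 h and at 72 h, with medians of -1.06 and -1.36. Among all tested genes, 36.5% and 31.0% were called lower at these times. SPC24, a subunit of the NDC80 complex that grips microtubules, was at 15.6, 14.3, 12.2 and 14.2 CPM in the control, with 6.16, 5.45, 4.97 and 5.93 CPM at 12 h and 4.25, 4.01, 3.01 and 3.95 CPM at 24 h. At 48 h it had returned to 9.86, 14.9, 9.12 and 12.1 CPM, overlapping the control, before it stood at 3.74, 3.58, 4.08 and 3.96 CPM at 72 h. It was lower at 24 h (log2 fold change -1.87, SE 0.14, edgeR adjusted p 5.6e-11) and at 72 h (log2 fold change -1.87, SE 0.14, edgeR adjusted p 4.6e-11), and at 24 h lower than at 12 h (log2 fold change -0.56, SE 0.15, edgeR adjusted p 0.0031). The call between 24 and 12 h was lost with factors per gene (-0.47, edgeR adjusted p 0.19). At 48 h SPC24 was called lower than the control without control replicate 3 (-0.36) or EGF 48 h replicate 2 (-0.44). CENPA, the histone variant that marks centromeres, was at 34.9, 31.9, 34.8 and 30.8 CPM in the control, with 26.7, 27.0, 24.4 and 29.7 CPM at 12 h and 30.6, 26.5, 27.1 and 26.6 CPM at 24 h. It was at 30.5, 35.7, 30.1 and 31.2 CPM at 48 h and at 12.4, 14.3, 15.7 and 14.9 CPM at 72 h. All libraries at 12 h and 24 h lay just below the control, though both calls were lost with factors per gene (-0.26 and -0.10), and those at 72 h were lower than every other library (log2 fold change -1.21, SE 0.09, edgeR adjusted p 2.2e-11). SPC25, the partner of SPC24, was lower at all times, with log2 fold changes of -1.12, -1.23, -0.40 and -1.36 at 12, 24, 48 and 72 h. The kinetochore motor CENPE was lower at 12, 48 and 72 h but not called at 24 h (-0.16, adjusted p 0.37). CENPF, a large kinetochore protein, was lower at all times and fell by 1.75 on the log2 scale at 72 h. The other NDC80 subunits, NDC80 and NUF2, were lower at 12 h (-0.85 and -1.11), 24 h (-0.39 and -0.33) and 72 h (-1.05 and -1.32), and not called at 48 h.

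The 4 subunits of the chromosomal passenger complex, which corrects wrong attachments, were not all lower at 12 h. BIRC5, the subunit also known as survivin, was at 118, 106, 102 and 105 CPM in the control and at 53.8, 54.9, 56.2 and 54.0 CPM at 12 h. It was at 63.9, 53.4, 53.5 and 48.9 CPM at 24 h, 85.3, 89.3, 69.9 and 80.1 CPM at 48 h and 31.3, 30.7, 37.3 and 35.1 CPM at 72 h. Every EGF library lay below every control library (log2 fold change -0.98, SE 0.09, edgeR adjusted p 4.8e-10 at 12 h, and log2 fold change -1.68, SE 0.09, edgeR adjusted p 5.1e-14 at 72 h). INCENP, the scaffold of the complex, was at 13.3, 24.0, 15.8 and 18.7 CPM in the control and at 19.8, 20.2, 19.8 and 18.5 CPM at 12 h. It was at 19.3, 17.5, 15.5 and 16.98 CPM at 24 h and 22.5, 22.4, 16.1 and 17.5 CPM at 48 h, all within or overlapping the control, and at 12.1, 11.4, 11.7 and 12.7 CPM at 72 h. INCENP was called lower at 72 h alone (log2 fold change -0.59, SE 0.14, edgeR adjusted p 6.6e-04), and without control replicate 2 it was called higher at 12 h and at 48 h (0.29 at each). AURKB, the kinase of the complex, had a log2 fold change of 0.0019 at 12 h (SE 0.13), was lower at 24 h (-0.64) and 72 h (-0.95), and was not called at 48 h (0.19, adjusted p 0.25). CDCA8, which binds the centromere, was lower at 12 h (-0.51), 24 h (-0.62) and 72 h (-1.29).

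All 8 mitotic kinesins were lower at 12 h and at 72 h, 5 were lower at 24 h and 4 at 48 h. Of all tested genes, 36.5% were called lower at 12 h and 31.0% at 72 h. The shares called lower at 24 and 48 h were 29.6% and 21.8%. KIF11, the motor that pushes the spindle poles apart, was at 65.9, 51.7, 70.2 and 58.1 CPM in the control and at 24.0, 25.1, 27.0 and 27.4 CPM at 12 h. It was at 36.4, 32.2, 37.7 and 33.9 CPM at 24 h, 38.4, 35.3, 47.8 and 45.2 CPM at 48 h and 22.7, 27.6, 26.2 and 25.3 CPM at 72 h. Every EGF library lay below the control, and the 12 h and 72 h libraries overlapped (log2 fold change -1.25, SE 0.10, edgeR adjusted p 1.1e-10 at 12 h, and log2 fold change -1.27, SE 0.10, edgeR adjusted p 1.2e-10 at 72 h). KIF2C, which removes tubulin from microtubule ends, was at 61.2, 67.4, 61.4 and 63.8 CPM in the control and at 47.7, 48.3, 53.4 and 52.2 CPM at 12 h. It was at 78.7, 69.4, 69.9 and 62.4 CPM at 24 h and 66.9, 70.8, 60.3 and 66.2 CPM at 48 h, both overlapping the control, and at 34.2, 36.1, 40.0 and 39.4 CPM at 72 h. It was lower at 12 h (log2 fold change -0.33, SE 0.07, edgeR adjusted p 3.9e-04) and 72 h (log2 fold change -0.76, SE 0.08, edgeR adjusted p 6.1e-09), and its value at 24 h was 0.14 (adjusted p 0.1), called higher without EGF 24 h replicate 4 (0.20). KIF20A, a motor of cytokinesis, had -1.60 at 12 h and -0.30 at 24 h, so that it was higher at 24 than at 12 h by 1.30 on the log2 scale. The chromokinesin KIF4A was lower at all 4 times, from -0.35 at 48 h to -1.46 at 72 h. KIF18A, which dampens chromosome movement, and KIF23, a subunit of centralspindlin, were also lower at all 4 times. KIF14 and KIF20B, both of cytokinesis, were called lower at 12 h (-0.34 and -0.80) and 72 h (-1.20 and -1.17), and at neither time between.

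HMMR, a spindle protein that also binds hyaluronan, had the largest fall of any member at 12 h. It was at 78.7, 52.0, 79.5 and 67.3 CPM in the control and at 14.9, 15.5, 16.9 and 15.3 CPM at 12 h. It was at 44.5, 36.8, 31.2 and 35.6 CPM at 24 h, 67.3, 59.8, 73.4 and 80.4 CPM at 48 h and 30.5, 32.0, 34.2 and 32.9 CPM at 72 h. The 48 h libraries overlapped the control, and those of the other times lay below it (log2 fold change -2.15, SE 0.12, edgeR adjusted p 2.5e-13 at 12 h, and log2 fold change -1.10, SE 0.12, edgeR adjusted p 2.0e-08 at 72 h). Its promoter, printed above, holds 5 CCAAT matches with an overlapping pair among them, beside 4 each in CCNB2 and TOP2A. Any relation between these matches and the fall was not tested. TPX2, which activates AURKA on spindle microtubules, was at 212, 193, 210.0 and 194 CPM in the control and at 134, 144, 144 and 152 CPM at 12 h. It was at 199, 168, 202 and 173 CPM at 24 h, 178, 187, 185 and 196 CPM at 48 h and 107, 122, 121 and 121 CPM at 72 h. Its 24 and 48 h libraries overlapped the control, and it was lower at 12 h (log2 fold change -0.50, SE 0.07, edgeR adjusted p 7.8e-07) and 72 h (log2 fold change -0.78, SE 0.07, edgeR adjusted p 7.7e-10). NUSAP1 and DLGAP5, which bundle or stabilise spindle microtubules, were lower at all 4 times, with log2 fold changes of -1.12 and -1.10 at 12 h and -1.20 and -1.60 at 72 h. PRC1, which cross-links the spindle midzone, was lower at 12 h (-0.55), 24 h (-0.47) and 72 h (-1.02). On the same strand, other annotated genes share 57.6% of the exon bases of PRC1 and 62.2% of those of NUSAP1, so their counts depend on how shared reads were assigned. ASPM, a spindle pole protein, was lower at 12 h (-0.37), 48 h (-0.27) and 72 h (-1.13), and had an uncalled value of 0.20 at 24 h.

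The 3 cytokinesis members had a median of -0.76 at 72 h, beside -1.11 for the 6 spindle assembly factors. ECT2, the exchange factor that switches on RHOA at the cell equator, was at 174, 178, 234 and 198 CPM in the control, with 177, 178, 196 and 190.3 CPM at 12 h and 183, 179, 201 and 197 CPM at 24 h. These 3 groups overlapped, though ECT2 was called lower at 12 h (-0.36) when scaled by library size. At 48 h ECT2 was at 146, 152, 175 and 183 CPM and at 72 h at 110.0, 123, 119.5 and 120.2 CPM, below every other library (log2 fold change -0.73, SE 0.09, edgeR adjusted p 9.5e-08). Its call at 48 h (log2 fold change -0.26, adjusted p 0.016) was lost without control replicate 3, EGF 48 h replicate 1 or EGF 48 h replicate 2, and with factors per gene (-0.11). RACGAP1, the other subunit of centralspindlin, was at 63.9, 54.8, 58.9 and 57.7 CPM in the control and at 39.9, 40.9, 41.0 and 42.1 CPM at 12 h. It was at 45.4, 45.5, 45.7 and 45.2 CPM at 24 h, 48.6, 48.3, 45.7 and 49.1 CPM at 48 h and 32.8, 35.6, 34.5 and 35.9 CPM at 72 h. Every EGF library lay below the control (log2 fold change -0.52, SE 0.06, edgeR adjusted p 3.3e-08 at 12 h, and log2 fold change -0.76, SE 0.06, edgeR adjusted p 7.9e-11 at 72 h). ANLN, which anchors the contractile ring, was lower at 12 h (-0.55), 24 h (-0.38) and 72 h (-0.85).

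CDC20 and UBE2C, which activate and serve the anaphase-promoting complex, differed in direction at 12 h with TMM scaling, while UBE2C was at 0.0048 when scaled by library size. CDC20 was at 158, 173, 158 and 158 CPM in the control, with 113, 113, 106 and 112 CPM at 12 h and 118, 106, 114 and 103 CPM at 24 h. It was at 119, 128, 100.1 and 106 CPM at 48 h and 50.1, 55.0, 61.5 and 60.5 CPM at 72 h. All EGF libraries lay below the control, with overlapping levels from 12 to 48 h and a further fall at 72 h (log2 fold change -0.54, SE 0.08, edgeR adjusted p 1.1e-06 at 12 h, and log2 fold change -1.51, SE 0.08, edgeR adjusted p 4.8e-14 at 72 h). UBE2C was at 193, 206, 151 and 175 CPM in the control and at 222, 219.8, 225 and 219.9 CPM at 12 h, with all 4 libraries above the control (log2 fold change 0.29, SE 0.10, edgeR adjusted p 0.0092). That call was lost with library size or upper-quartile scaling. It was at 128, 139, 159 and 130.1 CPM at 24 h, 174, 189, 140.1 and 159.5 CPM at 48 h and 76.7, 78.7, 92.4 and 88.6 CPM at 72 h. The 24 and 48 h libraries overlapped the control, UBE2C being called lower at 24 h (log2 fold change -0.38, SE 0.10, edgeR adjusted p 0.0014), and the 72 h libraries lay below all others (log2 fold change -1.11, SE 0.10, edgeR adjusted p 6.8e-10).

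MKI67, the gene of the Ki-67 protein that marks cycling cells, was at 224, 306, 270.1 and 305 CPM in the control, with 238, 267, 242 and 265 CPM at 12 h and 302, 272, 340.3 and 259 CPM at 24 h. It was at 228, 287, 226 and 219 CPM at 48 h and at 131, 132, 147 and 137 CPM at 72 h. The groups overlapped up to 48 h, and all 72 h libraries lay below all others (log2 fold change -1.01, SE 0.10, edgeR adjusted p 5.4e-09). Its value at 12 h, -0.13 with an adjusted p of 0.25, was called lower when libraries were scaled by size only (-0.41) or control replicate 1 was left out (-0.21). The call of no difference at 48 h (-0.20, adjusted p 0.096) changed to lower without control replicate 1 (-0.29) or without EGF 48 h replicate 2 (-0.30). TOP2A, the topoisomerase that untangles chromosomes before they separate, was at 285, 220.3, 292 and 259.6 CPM in the control and at 131, 140.3, 154 and 150.4 CPM at 12 h. It was at 141, 146, 151 and 144 CPM at 24 h, 177, 194, 197 and 190.3 CPM at 48 h and 78.6, 84.3, 93.9 and 85.4 CPM at 72 h. Every EGF library lay below every control library (log2 fold change -0.88, SE 0.08, edgeR adjusted p 6.0e-10 at 12 h, and log2 fold change -1.63, SE 0.08, edgeR adjusted p 1.5e-14 at 72 h).

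The steps between neighbouring times were tested directly. From 12 to 24 h, 26 members rose and 5 fell, while 27.9% of all tested genes rose and 25.9% fell. The rises were led by KIF20A (log2 fold change 1.30, SE 0.09, edgeR adjusted p 3.2e-11) and HMMR (log2 fold change 1.25, SE 0.12, edgeR adjusted p 1.9e-08). The 5 members that fell were both transcription factors, FOXM1 and MYBL2, with SPC24, AURKB and UBE2C, the call of SPC24 being lost with factors per gene (-0.47). The fall of FOXM1 (log2 fold change -0.30, SE 0.12, edgeR adjusted p 0.037) was lost when scaled by library size (-0.15) or upper quartiles (-0.18), with factors per gene (-0.29), and with at least 10 counts asked of every library (-0.26). It was also lost without EGF 12 h replicate 1, 2 or 4 or EGF 24 h replicate 2, 3 or 4, with values of -0.26 to -0.30. The rise of RACGAP1 (log2 fold change 0.15, SE 0.06, edgeR adjusted p 0.038) was lost without any of 7 of the 8 libraries. From 24 to 48 h, 20 members rose and 6 fell, while 25.9% of all tested genes rose and 24.3% fell. SPC24 rose most (log2 fold change 1.58, SE 0.14, edgeR adjusted p 4.2e-09), and FOXM1 (0.62) and AURKB (0.83) rose after their fall. The 6 members that fell were BUB3, CENPE, KIF14, ASPM, ECT2 and MKI67, and this count was 2 without EGF 24 h replicate 3 or EGF 48 h replicate 1 and 3 without EGF 48 h replicate 2. The calls of CENPA, CDK1, KIF11 and UBE2C (higher) and of ECT2 and MKI67 (lower) were each lost without any of several single libraries of 24 or 48 h, with log2 fold changes of 0.14 to 0.26 for the rises and of -0.27 to -0.16 for the falls. Both falls were also lost when scaled by library size, at -0.056 for ECT2 and -0.14 for MKI67. From 48 to 72 h, 46 members fell and 0 rose, beside 17.9% of all tested genes in each direction, and 41 fell by at least 1.5-fold. The share of all tested genes falling that far was not counted, and their 25th percentile was -0.26 on the log2 scale. For the count of 0, edgeR gave 0 rises at an unadjusted p under 0.05 and DESeq2 called 0. The median step was 0.25 from 12 to 24 h, 0.15 from 24 to 48 h and -0.96 from 48 to 72 h on the log2 scale, beside 0.040, 0.020 and -0.012 over all tested genes.

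The members fell into groups by these courses, and the share of all tested genes with each course was not counted. A total of 26 were lower at 12 h, higher at 24 than at 12 h, and lower at 72 than at 48 h, among them CCNB1, CCNB2, AURKA, BUB1, KIF11, KIF20A, TPX2 and HMMR. Lower than the control at all 4 times were 19, among them CCNA2, CCNB1, CDK1, BIRC5, CDC20 and TOP2A, though with factors per gene CDK1 was not called at 12 h nor RACGAP1 at 48 h (-0.29). A further 18, among them FOXM1, AURKA, NDC80, SPC24, KIF20A and HMMR, were lower at 12 and 72 h and not called at 48 h. PLK1, INCENP and MKI67 were called lower at 72 h only. For 5 members, CCNB2, CDC25C, AURKA, KIF20A and HMMR, the log2 value was lower at 12 h than at 72 h, a difference that was not tested. At 12 and 72 h, HMMR was at -2.15 and -1.10 and KIF20A at -1.60 and -1.36. The values hardly differed for CCNB2 (-1.47 at both, SE 0.07), AURKA (-0.53 and -0.49, SE 0.06) and CDC25C (-1.28 and -1.21, SE 0.13).

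Other genes of cell division were described from lists chosen by function. Of 52 other spindle and kinetochore genes, 37 were lower and 1 higher at 12 h, and 44 were lower and 1 higher at 72 h, with medians of -0.55 and -0.77. Over all tested genes the shares were 36.5% lower and 32.9% higher at 12 h, and 31.0% lower and 30.6% higher at 72 h. KIF15, a spindle kinesin, had a mean of 16.8 ± 1.09 CPM in the control (SD, n = 4) and of 4.44 ± 0.454 CPM at 72 h (log2 fold change -1.93, SE 0.11, edgeR adjusted p 2.2e-13). ZWINT, a kinetochore protein, was lowest at 24 h (log2 fold change -1.99, SE 0.13, edgeR adjusted p 2.3e-12). CKAP5, which lengthens microtubules, was the gene called higher at 12 h (log2 fold change 0.14, SE 0.06, edgeR adjusted p 0.05), with overlapping groups, and DSN1, of the kinetochore base, the one called higher at 72 h (0.23). Of 22 condensin and cohesin genes, 12 were lower at 12 h and 18 at 72 h, with 3 and 0 higher. The condensin subunits SMC2 (log2 fold change -0.998, SE 0.11, edgeR adjusted p 2.3e-08 at 12 h) and NCAPH (log2 fold change -1.54, SE 0.08, edgeR adjusted p 3.0e-14 at 72 h) fell most, and WAPL, which releases cohesin, rose at 12 h (0.49). For the count of 0 higher at 72 h, edgeR gave 0 at an unadjusted p under 0.05.

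Of the 17 genes of the anaphase-promoting complex, 5 were lower and 3 higher at 12 h, and 11 lower and 3 higher at 72 h, with medians of -0.031 and -0.30. At 12 h these are 29.4% lower and 17.6% higher, below the shares of all tested genes (36.5% and 32.9%), and at 72 h 64.7% and 17.6%, beside 31.0% and 30.6%. ANAPC16 had a mean of 119.7 ± 13.7 CPM in the control (SD, n = 4) and of 51.8 ± 1.69 CPM at 12 h (log2 fold change -1.21, SE 0.08, edgeR adjusted p 2.0e-12), and ANAPC15 fell most at 72 h (-1.22). The rises were smaller: FZR1, the activator of late mitosis and G1, at 12 h (0.40, with overlapping groups), and ANAPC10 at 72 h (0.46). Of 10 MuvB and DREAM subunits, 5 were higher and 2 lower at 12 h, and 2 higher and 4 lower at 72 h. These are 50% higher and 20% lower at 12 h, beside 32.9% and 36.5% of all tested genes, and 20% and 40% at 72 h, beside 30.6% and 31.0%. E2F4, the factor that brings DREAM to E2F sites, was higher at 12 h (log2 fold change 0.74, SE 0.07, edgeR adjusted p 1.7e-09) and RBL2, a pocket protein, lower (log2 fold change -0.63, SE 0.06, edgeR adjusted p 2.6e-09). LIN37 rose at 72 h (log2 fold change 0.83, SE 0.12, edgeR adjusted p 1.6e-06) and LIN9 fell (log2 fold change -0.72, SE 0.13, edgeR adjusted p 4.2e-05), both being subunits of MuvB.

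Among 16 genes of mitotic entry and the brakes on it, 7 were higher and 7 lower at 12 h, and 3 higher and 9 lower at 72 h. These are 43.8% in each direction at 12 h and 18.8% higher and 56.2% lower at 72 h, beside 32.9% higher and 36.5% lower of all tested genes at 12 h and 30.6% and 31.0% at 72 h. CDKN1A, which encodes the CDK inhibitor p21, had means (SD, n = 4) of 67.0 ± 9.54 CPM in untreated cells, 593 ± 8.75 CPM at 12 h, 324 ± 58.0 CPM at 24 h, 178 ± 14.2 CPM at 48 h and 471 ± 61.0 CPM at 72 h. It was higher at every time, without overlap (log2 fold change 3.14, SE 0.12, edgeR adjusted p 3.7e-16 at 12 h, and log2 fold change 2.81, SE 0.12, edgeR adjusted p 2.2e-15 at 72 h). Its levels were highest at 12 and 72 h, when the medians of the mitotic members were lowest, and any relation between the 2 was not tested. WEE1, the kinase that holds CDK1 inactive, had log2 fold changes of -0.21 at 12 h and -0.59 at 72 h, both called lower. CDC25B, which opposes WEE1, had -0.25 and -0.72, also both called lower. BTG2, an antiproliferative gene, fell most at 12 h (-0.65, with overlapping groups), and the stress gene GADD45B at 72 h (-0.82).

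Of 39 genes of DNA replication, 9 were higher and 19 lower at 12 h, 14 higher and 9 lower at 24 h, 5 higher and 16 lower at 48 h, and 10 higher and 18 lower at 72 h. These are 23.1%, 35.9%, 12.8% and 25.6% higher at 12, 24, 48 and 72 h, beside 32.9%, 29.2%, 24.0% and 30.6% of all tested genes. The shares lower were 48.7%, 23.1%, 41% and 46.2%, beside 36.5%, 29.6%, 21.8% and 31.0%. Their median log2 fold change was -0.15, 0.023, -0.11 and -0.16 at 12, 24, 48 and 72 h, compared with -0.57, -0.38, -0.26 and -1.17 for the mitotic members. CCNE1, the cyclin of S phase entry, was higher at 12 h (log2 fold change 1.29, SE 0.09, edgeR adjusted p 1.3e-11) and 72 h (log2 fold change 1.34, SE 0.09, edgeR adjusted p 8.3e-12). GINS4, of the replicative helicase, fell most at 72 h (log2 fold change -1.20, SE 0.08, edgeR adjusted p 2.4e-12).

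**Figure D4:**
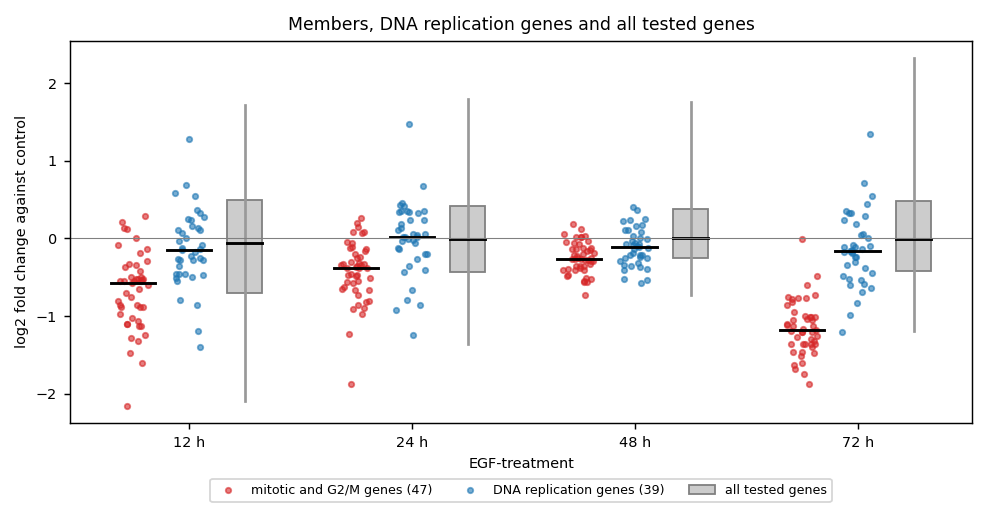
Log2 fold change against the control (vertical axis) at each time for the 47 mitotic and G2/M genes (red points), 39 DNA replication genes (blue points) and all 16522 tested genes (grey box from the 25th to the 75th percentile, line from the 5th to the 95th), with black bars at the medians. At 72 h the red median is -1.17, the blue one -0.16 and that of all tested genes -0.0090.

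The falls were also set beside the promoter elements, as a description. The 26 members with both CCAAT and a CHR core had a median log2 fold change of -0.60, -0.47, -0.26 and -1.18 at 12, 24, 48 and 72 h. The 13 other members with a window had -0.85, -0.36, -0.13 and -1.21, so that their median was lower at 12 and 72 h and higher at 24 and 48 h. The ranges overlapped, from -2.15 to 0.12 for the former and from -1.60 to 0.14 for the latter at 12 h.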

How the data were processed

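For this series, the authors deposited 10 tables that hold the same counts per gene and library, beside normalized values and their own DESeq2 fold changes and p-values, which were not used. The deposited counts were not normalized and were the start of the analysis here. The normalized values that the authors deposited, taken here as a score, were used in 1 alternative only. The submitters' processing notes name DESeq2 and hg38. The aligner, the counting tool, and the use of strand and of molecular identifiers are not given in the sources used here. Intervals and p-values may therefore cover PCR duplicates as if they were molecules.

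Counts were analyzed in edgeR 4.0.16 and limma 3.58.1 (R 4.3.3). Genes were kept by filterByExpr (16522 of 60271), scaled by TMM, and fitted in a single model over the 20 libraries, with 1 coefficient for each of the 5 groups. The quasi-likelihood test in its robust form was used, with Benjamini-Hochberg adjustment and a threshold of 0.05. Error values of levels are SDs over 4 libraries. The procedure was tested on simulated data. No columns of other samples were present. Over 30 pairs of replicates, the variance was 3.53 to 57.5 times the counting error, so no library was counted as a duplicate. Exon overlaps are from GENCODE 29.

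The members, the other lists and the rule for named genes were chosen with earlier results of these data known. All 47 members are named by role. Values per library are given for the largest and the smallest summed change in each role and for MKI67, CCNB1, CDK1, PLK1, AURKA, FOXM1, MYBL2 and CDC20. From each other list, the largest called rise and fall at 12 and 72 h are named, with CDKN1A, WEE1 and CDC25B, and some results under this rule are not reported here. Alternatives were other scalings, the DESeq2 1.42.0 Wald test, other filters, the 8 libraries compared alone, a replicate block, a fold limit, scaling factors per gene (from the normalized columns), and leaving out each library. The choice of 6 promoters by summed change was made after the windows were searched.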

Additional observations from a re-analysis of the deposited data

Results flagged for a closer look

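Single libraries stood apart from the other 3 of their group by Dixon's criterion in 4 of 115 combinations of gene and group, and chance alone gives about 1 in 20. CENPA in EGF 24 h replicate 1 was at 30.6 CPM, with the others at 26.5 to 27.1. TPX2 in EGF 72 h replicate 1 was at 106.5 CPM, with the others at 120.7 to 122.4. CDC20 in control replicate 2 was at 173.1 CPM, with the others at 157.9 to 158.3. MKI67 in EGF 48 h replicate 2 was at 287.3 CPM, with the others at 219.0 to 228.0.

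The effect of EGF differed between neighbouring times, by edgeR's test of the difference itself. From 12 to 24 h, 26 members were higher and 5 lower, beside 27.9% and 25.9% of all tested genes. From 24 to 48 h, 20 members were higher and 6 lower, beside 25.9% and 24.3%. From 48 to 72 h, 0 members were higher, also at an unadjusted p under 0.05 and in DESeq2, and 46 were lower. For this last step the share of all tested genes was 17.9% in each direction.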

How the results depend on the processing

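With no fold limit, the counts at 72 h were the same for the edgeR alternatives, DESeq2 and each library left out, with 46 members lower than the control, 46 lower than at 48 h and 0 higher. At a fold of at least 1.5 as well, 45 were lower than the control and 41 lower than at 48 h at 72 h, 23 members were lower at 12 h and 0 higher, 13 lower and 0 higher at 24 h, and 1 lower at 48 h. With this limit, 9 rose and 3 fell from 12 to 24 h, and 5 rose and 0 fell from 24 to 48 h. No share of all tested genes was counted at this limit. With scaling by library size only, 0 members were higher at 12 and 24 h and 1 fell from 24 to 48 h, and with upper-quartile scaling 0 were higher at 12 h. With factors per gene, 13 rose and 3 fell from 24 to 48 h. With a replicate block, 2 were higher at 24 h. Correlations of deviations between same-numbered libraries ran from -0.24 to 0.35, with a mean of 0.020, beside -0.0066 for different numbers. For 8 of 20 libraries, the best correlate in another group had the same number. These values do not decide whether replicate numbers pair the libraries, and the block was used as an alternative only. Over the fits without 1 library, members higher at 12 h numbered 2 to 4 (4 without control replicate 2), higher at 24 h 1 to 2 (2 without control replicate 3 or EGF 24 h replicate 4), higher at 48 h 0 to 2 (2 without control replicate 2) and falling from 24 to 48 h 2 to 6.

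The shares of calls that were higher, over all tested genes, moved from 47.4% at 12 h to 30.2% by library size and 37.2% by upper quartiles, and from 49.6% at 24 h to 36.3% by library size. From 12 to 24 h the share was 51.9%, and 68.6%, 66.1% and 39.2% by library size, upper quartiles and factors per gene. By library size it was 71.8% in place of 51.5% from 24 to 48 h and 33.8% in place of 50% from 48 to 72 h. For the members with values given per library, the others not being recomputed singly, 1938 values were recomputed where the member was called, of which 86 kept their sign and lost the call, and 2 changed sign: BUB3 at 12 h (-0.067 by library size only) and RACGAP1 from 12 to 24 h (-0.055 with factors per gene). Of 799 recomputed values of uncalled ones, 41 were called and 74 changed sign without a call. The cause of these changes was not tested. Searched on the forward strand only, CCAAT was in 46.2% and the CHR core in 66.7% of member windows, beside 20.8% and 9.77% of all windows. A difference under about 2 SE of a member is not resolved at this depth and number of replicates.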
